A study of Mus musculus with 6 samples.

Results

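The loci described here are Gapdh, Nes and Gfap, a housekeeping gene and a pair of neural stem cell (NSC) marker genes. They were chosen by position: every peak of the deposited ChIP-seq peak lists that overlapped a mm9 window around each gene by at least 1 bp was taken. The windows were chromosome 6 from 125100000 to 125125000 for Gapdh, chromosome 3 from 87760000 to 87800000 for Nes and chromosome 11 from 102735000 to 102765000 for Gfap. Of 43384 peaks in the 3 lists, 6 lay in these windows, and all 6 were peaks of H3K4me3.

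ChIP-seq pulls down chromatin with an antibody to a histone modification and sequences the attached DNA, and a peak is a stretch where reads pile up. The cultures were SVZ NSC monolayers, neural stem cells grown from the subventricular zone of early postnatal C57BL/6 mice, at passages 5 to 7, and the labels name no deletion or transgene. There was 1 library for H3K4me3 in proliferating cultures, labelled ventral, 1 for H3K27me3 in proliferating cultures and 1 for H3K27me3 after 30 h of differentiation, which the study induces by withdrawing growth factors and lowering serum. The sources used here do not give the number of mice behind each library, or whether the libraries shared mice. Whether the H3K27me3 cultures were also ventral was not established here. Overlaps and distances between the marks therefore compare libraries that may differ in region of origin. With 1 library per mark and state, no difference below was tested against variation between libraries, and H3K4me3 was not measured at 30 h. The lists hold no read counts, so depth is unknown and a missing peak can reflect depth or threshold. The study used ChIP-seq to find loci that lacked H3K27me3 before differentiation, and showed Gapdh as its housekeeping locus. It reported H3K4me3 but no H3K27me3 at Gapdh in proliferating cultures. By ChIP with quantitative PCR (ChIP-qPCR), it reported low H3K27me3 there in neuroblasts sorted later than 30 h into differentiation.

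Gapdh encodes a glycolytic enzyme that nearly all cells make. Nes encodes nestin, an intermediate filament protein of neural stem and progenitor cells. Gfap encodes glial fibrillary acidic protein, the intermediate filament of astrocytes and of the astrocyte-like stem cells of the SVZ. H3K4me3 is laid down around the start sites of transcribed and poised genes, usually where CpG dinucleotides are dense. H3K27me3 is placed by EZH2 in Polycomb repressive complex 2 and marks silenced developmental genes. A locus with both marks in one population is often called bivalent.

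The promoters are shown first, and they differ in CpG content. The H3K4me3 peaks of the windows, described below, differ in shape. Whether the 2 are related was not tested. The sequences are from RefSeq, build GRCm38.p6, which is not the build of the peaks, so no peak is placed on them. Each is the 250 bases before the annotated start, 5′ to 3′ on the strand of the gene, with every CpG in capitals. Gapdh is chr6:125165774-125166023 on the minus strand, Nes is chr3:87970843-87971092 on the plus strand and Gfap is chr11:102897201-102897450 on the minus strand.
Gapdh: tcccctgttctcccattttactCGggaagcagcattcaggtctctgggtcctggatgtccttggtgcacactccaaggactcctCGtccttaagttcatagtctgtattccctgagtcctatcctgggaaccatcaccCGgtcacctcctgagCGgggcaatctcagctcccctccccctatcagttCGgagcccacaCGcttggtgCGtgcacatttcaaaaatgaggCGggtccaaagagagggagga
Nes: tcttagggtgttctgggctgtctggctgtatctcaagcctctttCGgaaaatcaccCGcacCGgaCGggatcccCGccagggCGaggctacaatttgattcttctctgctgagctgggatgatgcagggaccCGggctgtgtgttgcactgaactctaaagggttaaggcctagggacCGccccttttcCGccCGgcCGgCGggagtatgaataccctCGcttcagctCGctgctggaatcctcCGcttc
Gfap: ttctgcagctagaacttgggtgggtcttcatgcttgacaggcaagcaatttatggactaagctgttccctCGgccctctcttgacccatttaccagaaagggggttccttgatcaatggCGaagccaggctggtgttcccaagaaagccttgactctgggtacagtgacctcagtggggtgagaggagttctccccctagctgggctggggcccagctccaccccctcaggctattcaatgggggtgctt

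The printed stretches hold 8 CpGs at Gapdh, 15 at Nes and 2 at Gfap. Over the whole 300-base promoter of the table, which adds 50 bases after the start, the observed over expected CpG ratio was 0.501 at Gapdh, 0.702 at Nes and 0.129 at Gfap. This ratio compares the CpGs found with the number that the C and G content alone would give. Among 32851 promoters of 27025 genes, 58.1% had a lower ratio than Gapdh, 71.1% a lower ratio than Nes and 17.8% a lower ratio than Gfap. The C and G content was nearly the same in the 3 promoters, at 56.7%, 58.7% and 55.7%. Gfap therefore differed from the other two in CpGs more than in base composition.

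**Figure D1:**
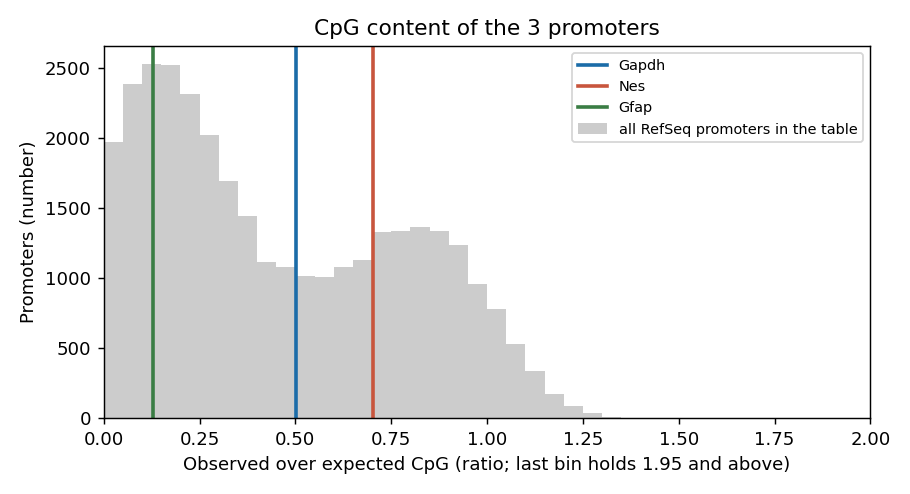
Observed over expected CpG (x axis, ratio) of all 32851 RefSeq promoters (bars, number of promoters on the y axis), with vertical lines for Gapdh, Nes and Gfap. Gfap, at 0.129, lies in the CpG-poor mode, Nes, at 0.702, toward the CpG-rich mode and Gapdh, at 0.501, between them.

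The motif GGGCGG, the GC box bound by Sp1-family factors, was found on both strands together 2 times in the Nes promoter, beginning 73 and 62 bases before the start, and was not found at Gapdh or Gfap. It occurs in 35.7% of all promoters of this length. The TATA box motif TATAAA, held by 13.6% of all promoters on either strand, was in none of the 3. The same was true of CCAAT, the box bound by NF-Y, which 37.4% of all promoters hold. TTCNNNGAA, the form of a STAT site, was found 1 time, across the Gfap start, and is in 8.30% of all promoters. These are matches of letters, and the motifs do not overlap one another in these windows.

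The study's own ChIP-qPCR primers for Gapdh, its negative control locus in that assay, both match the Gapdh promoter printed above, and are shown because they mark the stretch assayed there.
Gapdh forward: tcccctccccctatcagttc
Gapdh reverse: gacccgcctcatttttgaaa
The forward primer begins 82 bases before the start and the reverse primer, on the other strand, ends the product 16 bases before it. The product is 67 bp long.

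In proliferating cultures the Gapdh window held a single H3K4me3 peak, the Nes window 2 and the Gfap window 3. Each window had 1 peak at the score of 3100, the value that 44.9% of all H3K4me3 peaks share. The score is the authors' value from MACS, a peak caller. Near 3100 it hardly ranks peaks, since 225 H3K4me3 peaks scored above 3100 and the 23 peaks wider than 10 kb all scored exactly 3100. It was used here to rank peaks within a list, and strong and weak refer to this score. The peaks covered 4161 bp of the 25 kb at Gapdh, 5681 bp of the 40 kb at Nes and 8046 bp of the 30 kb at Gfap. In share of the window this was 16.6%, 14.2% and 26.8%. Gene boundaries in mm9 were not used here, so which peak of a window lies at the start of the named gene was not read from the files. In GRCm38.p6 the nearest protein-coding neighbours are Iffo1 and Ncapd2 for Gapdh, Crabp2 and Bcan for Nes, and Fam187a and Kif18b for Gfap.

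The Gapdh peak spanned 125113307 to 125117468 on chromosome 6, a width of 4161 bp, and scored 3100. It was 2.11 times as wide as the median H3K4me3 peak of 1970 bp, and 95.7% of the 18727 peaks were narrower. Among the 8627 peaks at 3100 or above, 90.9% were narrower. The next H3K4me3 peaks lay 15.4 kb away on the side of lower coordinates and 22.4 kb away on the other side. The window thus held 1 wide and strong peak.

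The strong Nes peak spanned 87773963 to 87778562 on chromosome 3 and was the widest of the 6, at 4599 bp. It scored 3100, ranked 537 of 18727 by width, and was wider than 97.1% of all peaks and than 94.0% of those at 3100 or above. The second Nes peak lay 8.74 kb away, from 87764144 to 87765226. It was 1082 bp wide with a score of 307.71, and 17.3% of all peaks were narrower and 22.7% scored lower. The Nes window therefore paired one of the wider peaks of the list with one of the narrower.

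The Gfap window had a different make-up. Its strongest peak spanned 102740397 to 102743591 on chromosome 11, was 3194 bp wide and scored 3100, and 87.2% of all peaks were narrower. A pair of weaker peaks followed, from 102753069 to 102755667 with a width of 2598 bp and a score of 141.72, and from 102756426 to 102758680 with a width of 2254 bp and a score of 457.5. They lay 759 bp apart, and the first was 9.48 kb from the strong peak. Only 14.0% of all H3K4me3 peaks scored lower than the first and 26.8% lower than the second.

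Both weak Gfap peaks were wide for their score. With the list divided into 10 equal groups by score, the 2598 bp peak fell in the group with scores of 102.59 to 237.41, where the median width was 1051 bp. In that group 99.6% of 1873 peaks were narrower, and 6 were wider. The 2254 bp peak fell in the group with scores of 237.48 to 633.39, where the median was 1291 bp and 98.1% of the 1873 peaks were narrower. The weak Nes peak, in the same group, was wider than 20.1% of it. Low-scoring, broad H3K4me3 thus distinguished the Gfap pair from the weak peak beside Nes, as a description of 1 library. This grouping was chosen after the peaks were seen.

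**Figure D2:**
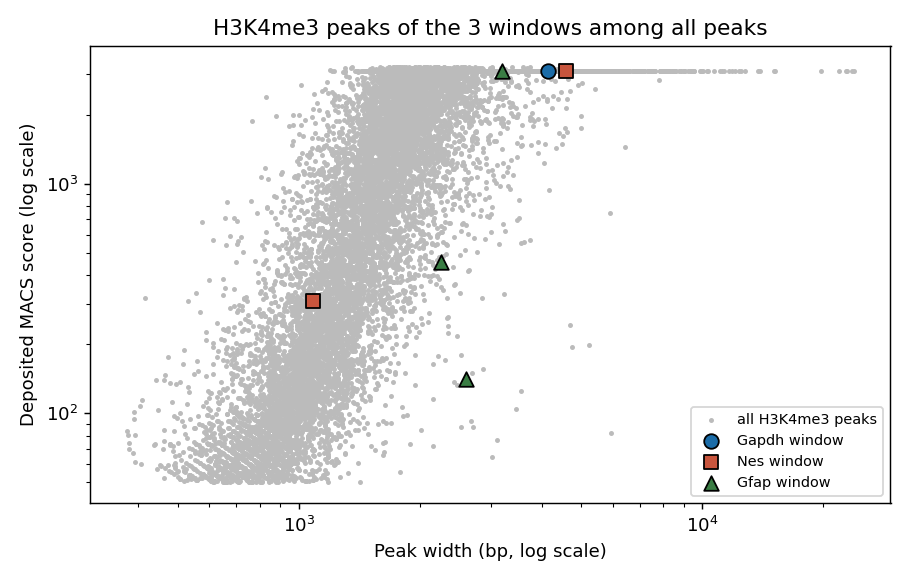
Width (x axis, bp, log scale) and deposited MACS score (y axis, log scale) of all 18727 H3K4me3 peaks of the proliferating library (grey) and of the 6 peaks in the Gapdh (circle), Nes (squares) and Gfap (triangles) windows. The row of points at 3100 is the shared score, and the Gfap peaks at 141.72 and 457.5 lie to the right of most peaks of their score.

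When peaks less than 3 kb apart were joined, the Gfap pair became 1 domain of 5611 bp, wider than 96.4% of 17363 such domains and wider than the Nes and Gapdh peaks, which stayed at 4599 and 4161 bp. The order of the windows by their widest H3K4me3 stretch, Nes then Gapdh then Gfap, therefore turned to Gfap then Nes then Gapdh. Neither order says which stretch lies at the start of the named gene, since that was not read. The second Nes peak was not joined.

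No H3K27me3 peak of the proliferating list lay in any of the 3 windows, and none of the 30 h list did. In the whole series, 11.0% of H3K4me3 peaks overlapped a proliferating H3K27me3 peak, 14.3% a 30 h peak and 15.1% a peak of either list. Against that background, 0 of 6 does not set these loci apart from the rest. Of the H3K4me3 peaks at 3100 or above, the class of the strongest peak in each window, 4.97% met H3K27me3 in either list, and of those below it 23.7% did. The 3 weaker peaks in the Nes and Gfap windows belong to the latter class and were also free of the mark.

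The loci differed in how much H3K27me3 lay around them. Within 100 kb on either side of the widest H3K4me3 peak, proliferating H3K27me3 covered nothing at Gapdh, 12.6 kb in 2 peaks at Nes and 53.5 kb in 15 peaks at Gfap. The median over all H3K4me3 peaks was 1.41 kb, and 47.9% had none. Of all H3K4me3 peaks, 88.5% had less than Nes and 98.8% less than Gfap. The Gfap window was thus a gap in one of the most H3K27me3-rich surroundings in the list, while Gapdh had none of the mark nearby. The reach of 100 kb was chosen after the peaks were seen.

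At 30 h the order was the same. H3K27me3 covered 8.71 kb in 3 peaks around Gapdh, 24.0 kb in 3 peaks around Nes and 62.4 kb in 11 peaks around Gfap, where the median over all H3K4me3 peaks was 3.76 kb. The values at Gapdh, Nes and Gfap were above those of 63.8%, 83.8% and 97.0% of H3K4me3 peaks. The 30 h list is longer than the proliferating one, with 15187 peaks against 9470, and covers 73.4 Mb in all against 29.2 Mb. The larger cover around the 3 loci was not separated from that.

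**Figure D3:**
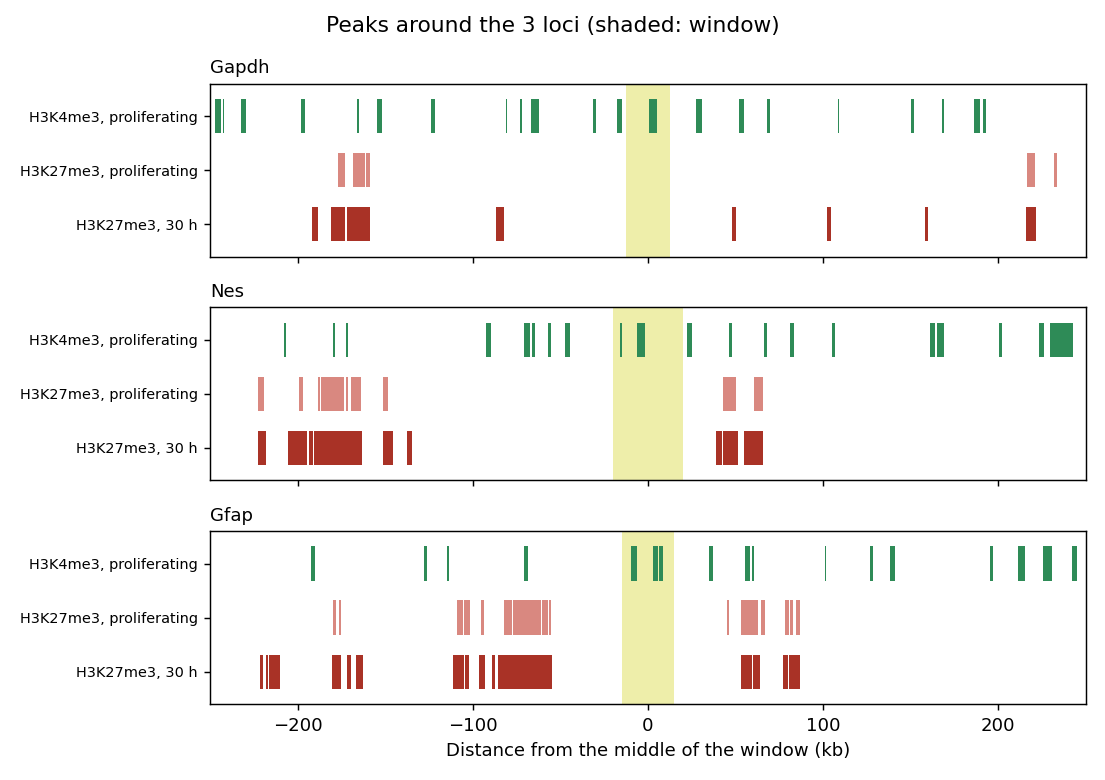
Peaks of the 3 lists (rows) around each locus, drawn to scale against the distance from the middle of the window (x axis, kb), with the window shaded; peaks with small gaps run together. H3K27me3 is absent from all 3 windows in both lists, and lies densest on both sides of Gfap, with 53.5 kb (proliferating) and 62.4 kb (30 h) within 100 kb of the widest H3K4me3 peak.

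Near Nes, the closest proliferating H3K27me3 peak lay 44.2 kb from the strong H3K4me3 peak, from 87822803 to 87830472. It was 7.67 kb wide with a score of 1474.37, above 95.8% of its list, and it overlapped 1 H3K4me3 peak. At 30 h the closest peak lay 40.3 kb away on the same side, from 87818814 to 87822612, with a score of 183.65, and it met no H3K4me3. Next to it, from 87822683 to 87831650, a 30 h peak of 8.97 kb with a score of 2865.82 overlapped the proliferating peak and 1 H3K4me3 peak. On the other side the closest peaks were 142.7 kb away in proliferating cultures and 128.6 kb away at 30 h. The nearer mark lay on the side of higher coordinates in both libraries, at distances that differed by less than 4 kb.

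Around Gfap the mark lay on both sides. The closest proliferating peaks were weak, with scores of 50.01 and 54.26, at 45.8 kb and 51.4 kb from the 3194 bp H3K4me3 peak. On the side of the first, the nearest 30 h peak spanned 102680512 to 102695179 and was 14.7 kb wide with a score of 2526.45. It ended 45.2 kb from the H3K4me3 peak, and overlapped 3 proliferating H3K27me3 peaks and 1 H3K4me3 peak. On the other side the widest proliferating peak within 100 kb, from 102803121 to 102812754, was 9.63 kb wide with a score of 1518.86, and the closest 30 h peak began nearby, at 102803320. The borders that faced Gfap on the side of lower coordinates lay at 102694623 and 102695179, 0.556 kb apart, and those on the other side at 102794959 and 102803320, 8.36 kb apart. From the weak peaks of 2598 and 2254 bp, the nearest proliferating H3K27me3 lay 39.3 and 36.3 kb away. At 30 h it lay 47.7 and 44.6 kb away. For this pair the nearest mark was on the side of higher coordinates in both lists. Which side is nearer to Gfap thus depends on the H3K4me3 peak taken.

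At Gapdh the closest proliferating peaks lay 159.8 kb and 211.5 kb from the H3K4me3 peak. At 30 h they lay 43.2 kb and 83.2 kb away. The nearer of these, from 125160716 to 125162613, scored 51.64, with 1.34% of the 30 h list below it, and the other, from 125025500 to 125030126, scored 315.27. Neither overlapped H3K4me3 or a proliferating H3K27me3 peak.

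The stretch between the flanking H3K27me3 peaks, the H3K27me3-free interval, was 375.5 kb at Gapdh, 191.5 kb at Nes and 100.3 kb at Gfap in proliferating cultures. At 30 h it was 130.6 kb, 173.5 kb and 108.1 kb. The median interval around H3K4me3 peaks that were free of the mark was 547.0 kb in proliferating cultures and 420.9 kb at 30 h, so all 3 intervals were below the median in both lists. In proliferating cultures 34.6% of these peaks had a shorter interval than Gapdh, 15.9% a shorter one than Nes and 7.10% a shorter one than Gfap. At 30 h the shares were 17.6%, 23.4% and 13.9%. The proliferating interval held 16 H3K4me3 peaks at Gapdh, 8 at Nes and 4 at Gfap.

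**Figure D4:**
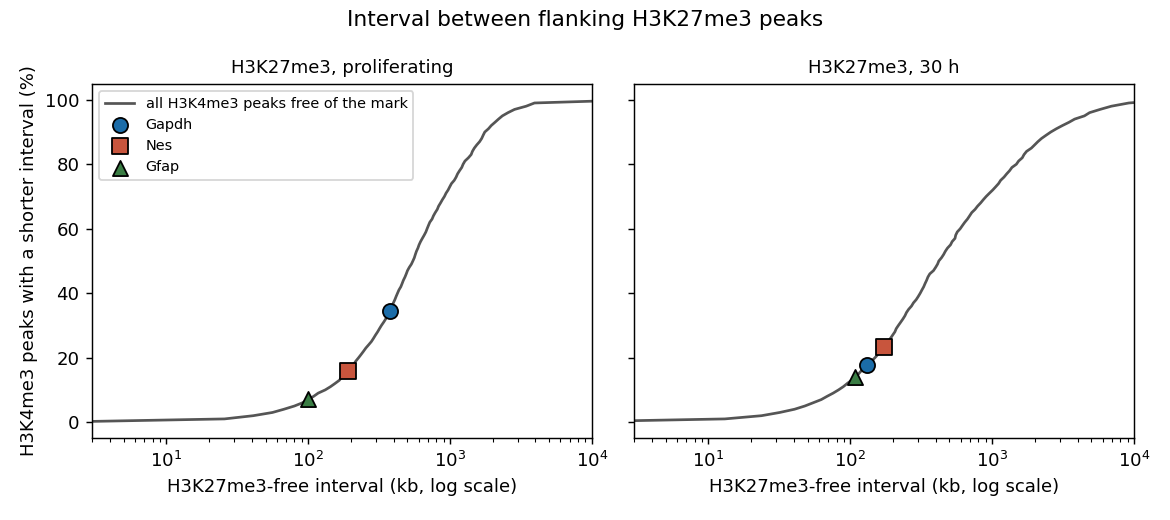
H3K27me3-free interval (x axis, kb, log scale) against the share of H3K4me3 peaks free of the mark that have a shorter interval (y axis, percent), for the proliferating (left) and 30 h (right) H3K27me3 lists, 1 library each. The curve is all such peaks, and the symbols are the widest H3K4me3 peaks of the Gapdh, Nes and Gfap windows, with Gapdh moving from 375.5 kb to 130.6 kb and Gfap from 100.3 kb to 108.1 kb.

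The ratio of the 30 h to the proliferating interval was 0.348 at Gapdh, 0.906 at Nes and 1.08 at Gfap. Over the 15777 H3K4me3 peaks free of H3K27me3 in both lists the median ratio was 0.909, and 16.0% had a lower ratio than Gapdh. The low ratio at Gapdh came with 4 peaks of the 30 h list that lay inside its proliferating interval, with scores of 51.64 to 315.27 and widths of 1887 to 4626 bp, none of which met H3K4me3. The Nes interval gained 2 such peaks and the Gfap interval none. The proliferating intervals differ in length, at 375.5 kb, 191.5 kb and 100.3 kb for Gapdh, Nes and Gfap. The counts were not scaled to length or set against those of other intervals, so they do not rank the loci by gain. The border 43.2 kb from Gapdh rested on the peak that scored 51.64, while the border on the other side, at the score of 315.27, stood above 70.5% of the 30 h list. When both H3K27me3 lists were held to 9470 peaks by dropping the weakest at 30 h, the Gapdh interval was 298.1 kb. Its ratio was then 0.794, against a median of 0.9996 over all peaks. When the 30 h list was cut to 2196 peaks, at which its covered length matched that of the proliferating list, the interval was 1156 kb and the ratio 3.08, with a median of 4.07 over all peaks. In these settings the ratio at Gfap was 1.08, and that at Nes 0.906 and 1.08. With the stronger 50% of each list the ratio at Gfap turned to 0.984. The proliferating peaks on either side of Gfap, which scored 50.01 and 54.26, were no longer in the list. The ratios were 0.794 at Gapdh and 0.906 at Nes, against a median of 0.912 over all peaks.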

How the data were processed

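ChIP-seq peak lists of 1 library each were used for H3K4me3 and H3K27me3 in proliferating cultures and for H3K27me3 at 30 h; the 3 input libraries were not used here. Per the labels, the submitters' processing notes name Bowtie2 and mm9. MACS called the peaks, and the study names its no model, no lambda form for H3K27me3; the sources used here give neither its version and threshold nor its settings for H3K4me3. The deposited score is the authors' MACS value, not comparable between lists, with lowest values of 50.01 to 50.03. Positions are as deposited.

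Overlaps of at least 1 bp, distances and covered lengths were computed in Python 3.11.15 (pandas 2.3.3, numpy 2.4.6; Wilson limits by scipy 1.17.1) and drawn by matplotlib 3.10.9. This code was tested on simulated data and matched direct counts in 20 of 20 simulated pairs of lists. Every peak in a window is named; outside them, the nearest H3K27me3 peaks and, chosen after their values were seen, the other H3K27me3 peaks given. The members and lists were chosen with earlier results of these data known. No test was run. Alternatives were the stronger 50% of each list, wider windows, peak middles, merged peaks, 30 h lists of equal number or length, and 5 score groups in place of 10. All 3 genes matched the RefSeq promoter table.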

Additional observations from a re-analysis of the deposited data

How the results depend on the processing

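Windows extended by 10 kb on each side held no H3K27me3 peak in 6 of 6 counts. The positions of the nearest H3K27me3 peaks, given above, already fix this count. The other settings can only remove or join peaks, so no setting adds to what is known of this absence. With the stronger 50% of each list, the Nes and Gfap windows kept 1 H3K4me3 peak each, covering 4.60 and 3.19 kb. The nearest 30 h peak was then 83.2 kb from Gapdh, with an interval of 298.1 kb. The nearest proliferating peak was 47.2 kb from the 3194 bp Gfap peak. The proliferating interval at Gfap was 109.9 kb, which turned the Gfap interval ratio from 1.08 to 0.984. The share of peaks with less H3K27me3 within 100 kb became 61.1% for Gapdh, 87.6% for Nes and 96.4% for Gfap at 30 h, and 90.4% for Nes and 98.6% for Gfap in the proliferating list. The extended windows held 2 H3K4me3 peaks at Gapdh, 3 at Nes and 3 at Gfap. These covered 7.27 kb at Gapdh, 8.87 kb at Nes and 8.05 kb at Gfap. Merging gave 2 domains, 8.805 kb covered and a widest domain of 5611 bp at Gfap, and shares of narrower domains of 91.6% for Gapdh, 93.5% for Nes and 96.4% for Gfap. At equal numbers of peaks, Gapdh lay 83.2 kb from the nearest 30 h peak, its interval was 298.1 kb, and the shares within 100 kb were 58.6% for Gapdh and 86.3% for Nes. At equal covered length the 30 h intervals were 1156 kb at Gapdh and 206.0 kb at Nes. Upstream of the start alone, the CpG ratio was 0.422 at Gapdh, 0.694 at Nes and 0.104 at Gfap. With 5 score groups in place of 10, 12.2% of peaks were narrower than the weak Nes peak and 95.2% than the 2254 bp Gfap peak. The settings on the interval, the 100 kb reach and the score groups were chosen after seeing the data. Shorter lists lose weak peaks by construction; beyond that the cause was not tested. No paired analysis was possible because each mark and state has 1 library and no result comes from a test. The unknown depth limits each comparison of one list with another.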

Other observations

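A strong H3K4me3 peak lay just outside the Gapdh and the Nes windows. Beside Gapdh it spanned 125094842 to 125097952 on chromosome 6, 2048 bp from the edge, and was 3110 bp wide. Beside Nes it spanned 87802081 to 87805270 on chromosome 3, 2081 bp from the edge, and was 3189 bp wide. Both scored 3100. No further H3K4me3 peak lay within 10 kb of the Gfap window.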
